A study of Arabidopsis thaliana with 12 samples.

Results

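A set of 10 cysteine protease genes was followed in leaves of the plant Arabidopsis thaliana: 7 genes of papain-like proteases (SAG12, RD21A, RD21B, RD19A, AALP, CEP1 and XCP1) and 3 genes of vacuolar processing enzymes (alpha-VPE, beta-VPE and gamma-VPE). They were picked by locus identifier, not by their values, and make up 10 of the 38288 genes in the count table. The leaves came from Col, the wild type, and from chlorella-1, labelled a chlorella knockout, each at 14 d, called young here, and at 26 d, called older. There were 3 libraries of total RNA per group, 12 in all, made after removal of ribosomal RNA, and the labels name no treatment in any group. The mutant is a single line, and no gene called CHLORELLA is listed in the table or in the reference, so the labels' genotypes are taken as given, with no check on the mutated RNA. The labels do not say whether replicates are separate plants, so p-values measure the spread between these libraries, which may be technical.

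Papain-like proteases are made as inactive precursors that pass through the secretory pathway, mostly to the lytic vacuole, where an inhibitory pro-domain is cut off. Vacuolar processing enzymes are legumain-type cysteine proteases that cut after asparagine or aspartate and mature other vacuolar proteins. In leaves, both groups are known for protein breakdown during senescence and for cell death of particular cell types, and SAG12 is widely used as a marker of leaf senescence.

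The pairs RD21A with RD21B and gamma-VPE with alpha-VPE are the closest by coding sequence among the 10 genes, with 78.9% and 82% identical aligned bases. Since each pair holds a high and a low gene, the letters that let reads tell them apart are shown. The stretches below are 60 coding bases from the RefSeq TAIR10.1 genome, all on the minus strand, at chr1:17285349-17285408 for RD21A, chr5:17271851-17271910 for RD21B, chr4:15902121-15902180 for gamma-VPE and chr2:11064858-11064917 for alpha-VPE. The gamma-VPE and alpha-VPE stretches contain the longest identical run of their pair. Those of RD21A and RD21B do not contain the whole of theirs. Capitals mark the bases that differ within the pair.
RD21A: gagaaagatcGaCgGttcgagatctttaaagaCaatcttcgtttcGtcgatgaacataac
RD21B: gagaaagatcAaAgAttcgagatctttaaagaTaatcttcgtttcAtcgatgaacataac
gamma-VPE: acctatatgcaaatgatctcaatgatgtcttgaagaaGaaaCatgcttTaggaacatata
alpha-VPE: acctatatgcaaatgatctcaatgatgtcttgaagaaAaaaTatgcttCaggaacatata
The longest identical run was 28 bases between RD21A and RD21B and 37 bases between gamma-VPE and alpha-VPE. No 50-base window of the transcripts of any of the 10 genes occurred in another annotated gene.

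Of the 10 genes, 9 were higher in older chlorella-1 than in older Col and none was lower. The shares of all genes tested were 31.5% and 31.8%. At 14 d none of the 10 passed, beside 0.162% of all genes tested. A fit of the 14 d groups alone called 4 of the 10, beside 14.6%. SAG12 RNA went from 0 counts in all 6 libraries at 14 d to the highest per-length level of the 10 genes in older chlorella-1. Alpha-VPE and CEP1 were close to 0 in the other 3 groups and reached about 14 and 45 CPM in older chlorella-1. Gamma-VPE rose with age by a similar amount in both genotypes. XCP1, the xylem protease, fell with age in both. All 10 passed the filter on low counts, SAG12, CEP1 and alpha-VPE through the 26 d groups and XCP1 through the 14 d groups, the only groups where they reach the minimum in every library. CPM are read counts per 1000000 counts of the library, after edgeR's TMM scaling, and adjusted p values come from the quasi-likelihood test of edgeR, corrected by the Benjamini-Hochberg method over all genes tested.

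**Figure D1:**
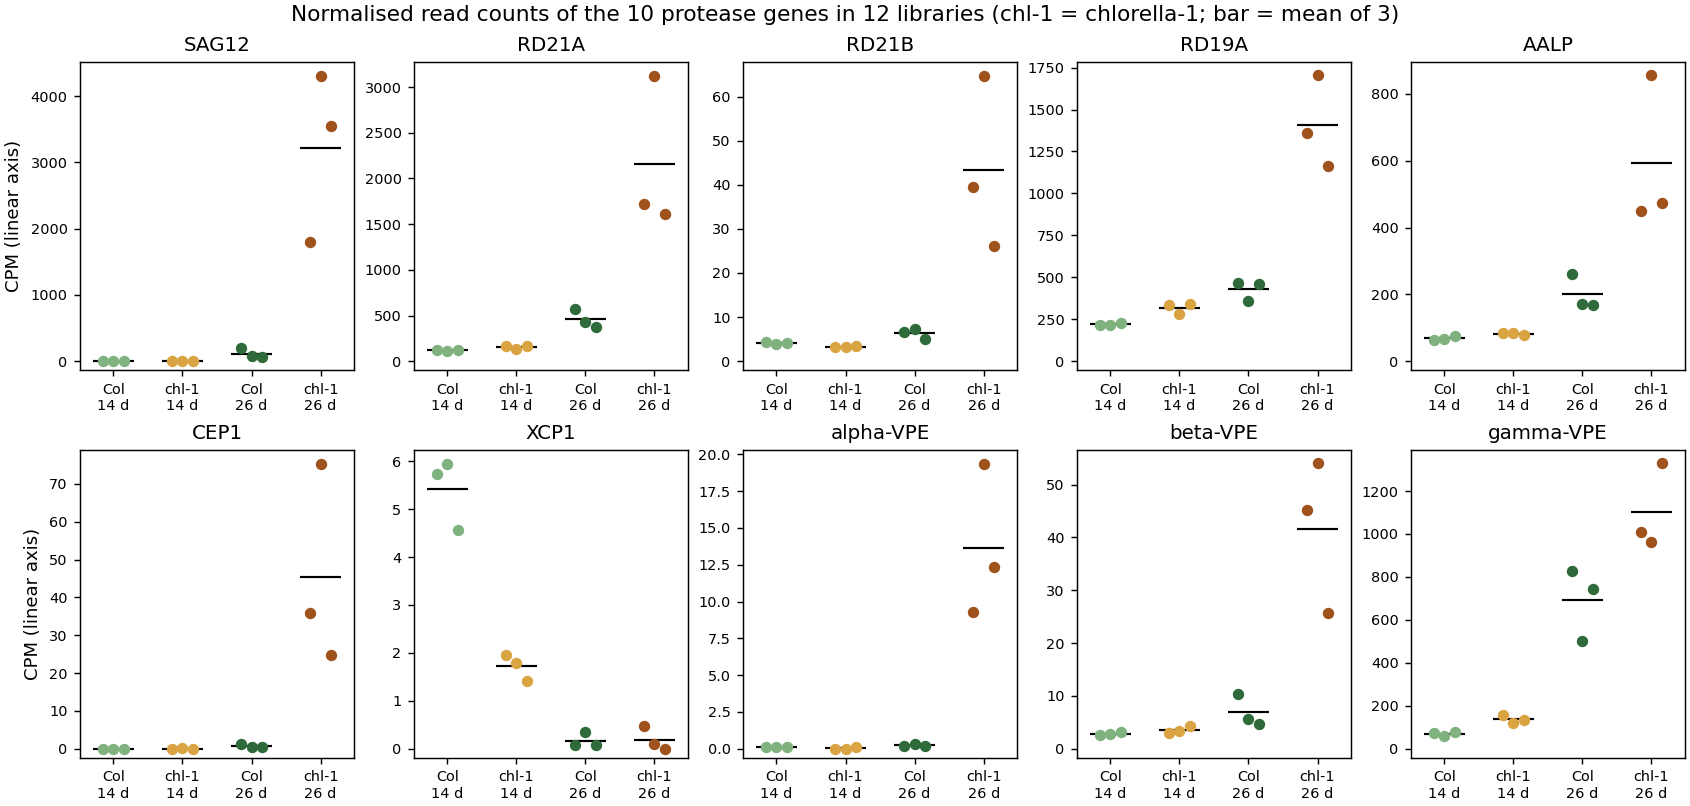
Normalised read count (CPM, linear axis from 0, own scale per panel) of each of the 10 genes in the 12 libraries; points are libraries and bars are means of 3. SAG12 stays at 0 in all libraries at 14 d, and XCP1 has its highest values in young Col, from 4.57 to 5.94 CPM.

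Leaf mesophyll marker genes were detected in all libraries, 7 of 7. Their summed level ran from 13599 to 15929 CPM in young Col, from 12149 to 13516 in young chlorella-1, from 3816 to 6671 in older Col and from 403 to 915 in older chlorella-1. Libraries held 45120547 to 70452171 gene counts, of which nuclear genes took 26.9% to 49.4%. The nuclear share was 27.06% to 28.07% in older Col and 38.85% to 49.4% in older chlorella-1, so library make-up differed between these groups. In bulk leaf RNA, fewer cells of a type and less RNA per cell cannot be told apart.

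The comparison of the genotypes at 26 d asked how the protease genes differ in older leaves. The count of 9 of 10 higher stands beside 31.5% of all genes tested that were higher in chlorella-1 by the same rule. The median log2 fold change of the 10 genes was 2.41, and that of all genes tested was -0.11. The age comparisons use the same 26 d libraries, so values of different comparisons are set side by side and are not independent.

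SAG12 (AT5G45890, chr5:18613239-18614963, plus strand, 3 exons) encodes a papain-like protease of senescence-associated vacuoles. Its levels at 26 d were 197, 73.6 and 69.1 CPM in Col and 1800, 4299 and 3553 CPM in chlorella-1. All mutant libraries lay above all Col libraries, and Col replicate 1 was the highest of the wild type. The log2 fold change was 4.83 ± 0.57 (standard error, n = 3 per group, adjusted p = 0.000199), and 5.49 without Col replicate 1 at 26 d. With age, SAG12 rose at least 7456-fold in Col and at least 185151-fold in chlorella-1, each against a floor of 3 counts over the 3 libraries at 14 d. The adjusted p values of these changes were 4.9e-05 and 1.72e-06. Because both 14 d groups were at 0, no genotype difference in the age change is given for SAG12.

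RD21A (AT1G47128) and RD21B (AT5G43060), dehydration-responsive proteases with a granulin domain, were both higher in older chlorella-1 at very unequal levels. RD21A measured 571, 425 and 379 CPM in Col and 1719, 3123 and 1616 CPM in chlorella-1, with no overlap and a log2 fold change of 2.23 ± 0.26 (adjusted p = 2.62e-05). RD21B measured 6.55, 7.34 and 5.02 CPM in Col and 39.4, 64.7 and 26.2 CPM in chlorella-1, again with the groups apart. Its log2 fold change was 2.79 ± 0.28 (adjusted p = 9.11e-06). In both genes the mutant replicate 2 was the highest library.

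The pair differed in the wild type. In Col, RD21A rose from 127, 116 and 124 CPM at 14 d, a log2 fold change with age of 1.91 ± 0.26 (adjusted p = 0.000222). RD21B started from 4.43, 3.82 and 4.23 CPM, and its age change of 0.60 ± 0.27 in Col did not pass (adjusted p = 0.101). It passed in a fit of the Col groups alone (adjusted p = 0.00999) and when chlorella-1 replicate 2 or 3 at 26 d was left out (adjusted p = 0.0142 and 0.0367), so the call for RD21B changed with the libraries that were fitted. In chlorella-1 both rose with age, RD21A by 3.81 ± 0.28 and RD21B by 3.73 ± 0.30 on the log2 scale (adjusted p = 3.65e-07 and 6.09e-07). The ratio of RD21A to RD21B per length of gene was 30.5 to 32.4 in young Col, 45.2 to 54.2 in young chlorella-1, 61.8 to 93.0 in older Col and 46.6 to 65.7 in older chlorella-1.

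RD19A (AT4G39090), a dehydration-responsive protease of the cathepsin F type, had the highest per-length level of the 10 genes at 14 d. It measured 217, 213 and 228 CPM in young Col and 467, 357 and 460 CPM at 26 d. In chlorella-1 it measured 337, 283 and 339 CPM at 14 d and 1358, 1708 and 1166 CPM at 26 d. The groups lay in 4 separate ranges in the order Col at 14 d, chlorella-1 at 14 d, Col at 26 d and chlorella-1 at 26 d. The genotype difference at 26 d was 1.72 ± 0.18 on the log2 scale (adjusted p = 1.32e-05), the smallest standard error of the 10 genes.

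AALP (AT5G60360, symbol ALP in the table), the aleurain-like protease of the cathepsin H type and a known cargo of vacuolar sorting, measured 261, 172 and 169 CPM in older Col and 450, 856 and 473 CPM in older chlorella-1. The mutant libraries were all above the Col libraries, with mutant replicate 2 well above its group. The log2 fold change was 1.56 ± 0.26 (adjusted p = 0.000303). At 14 d it had measured 64.8, 67.3 and 76.8 CPM in Col and 84.0, 83.0 and 79.5 CPM in chlorella-1, so its age change was 1.53 ± 0.26 in Col and 2.85 ± 0.27 in chlorella-1 (adjusted p = 0.000838 and 2.38e-06).

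CEP1 (AT5G50260) encodes a protease with an endoplasmic reticulum retention tail that is known from the death of tapetal cells in the anther. It had 0, 2 and 4 read counts in young Col, 0, 8 and 0 in young chlorella-1, and 87, 24 and 26 in older Col. In older chlorella-1 the counts were 2379, 3291 and 1437, or 35.9, 75.3 and 24.8 CPM against 1.33, 0.409 and 0.427 CPM in Col. The mutant libraries stood far above all others. The log2 fold change at 26 d was 5.96 ± 0.69 (adjusted p = 2.28e-05), and 6.75 without Col replicate 1. CEP1 also rose with age in Col, by 4.48 ± 1.02 (adjusted p = 0.00484), with 3.85 and 5.48 when Col replicate 1 or 3 at 14 d was left out and 3.73 without Col replicate 1 at 26 d. In chlorella-1 it rose by 9.88 ± 0.91 (adjusted p = 1.94e-06).

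Since CEP1 is known from the anther, anther and pollen markers were read in the same libraries. Of 9 such genes, 5 were at 0 counts in every library of older chlorella-1, among them MS1, A9, ATA7 and LTP12, and the summed level of the list without the pollen genes VGD1 and PPME1 was 0.136 to 0.517 CPM there. With VGD1 and PPME1 the sum was 8.78 to 34.9 CPM in older chlorella-1, against 0.0765 to 0.494 in older Col. Whether these pollen genes share a source with CEP1 was not tested. Seed storage markers, read because of beta-VPE, were at 0 in all 6 libraries at 26 d for 7 of 7 genes.

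The 3 vacuolar processing enzymes differed among themselves in size of change. Gamma-VPE (AT4G32940), the main form of vegetative tissues, measured 827, 500 and 746 CPM in older Col and 1010, 962 and 1329 CPM in older chlorella-1. The groups did not overlap, and Col replicate 2 was the lowest library. The log2 fold change was 0.67 ± 0.22 (adjusted p = 0.0195), the smallest of the 9 that passed. The call was lost in a fit of the 26 d groups alone (adjusted p = 0.0732) and without Col replicate 2 (0.47, adjusted p = 0.0793).

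Alpha-VPE (AT2G25940), another vegetative form, had 10, 8 and 7 read counts in young Col, 0, 0 and 6 in young chlorella-1, and 14, 18 and 11 in older Col. In older chlorella-1 it had 616, 846 and 716 counts, or 9.31, 19.4 and 12.3 CPM. No other group came near these libraries. The difference from Col at 26 d was 5.86 ± 0.52 on the log2 scale (adjusted p = 3.57e-06), while its age change in Col, 0.87 ± 0.60, did not pass (adjusted p = 0.276). Its age change in chlorella-1 was 8.52 ± 0.65 (adjusted p = 4.5e-07), and 7.90 without chlorella-1 replicate 2 at 14 d. The level per length of gamma-VPE was 422 to 538 times that of alpha-VPE in young Col, 1374 to 3477 times in older Col and 41.8 to 91.3 times in older chlorella-1.

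Beta-VPE (AT1G62710), best known for processing seed storage proteins, was also transcribed in these leaves. It measured 2.60, 2.76 and 3.14 CPM in young Col and 3.05, 3.32 and 4.33 in young chlorella-1, then 10.5, 5.69 and 4.78 CPM in older Col and 45.3, 54.1 and 25.8 in older chlorella-1. The 14 d groups overlapped and the 26 d groups did not. The difference at 26 d was 2.58 ± 0.33 on the log2 scale (adjusted p = 4.49e-05). The age change was 1.30 ± 0.32 in Col and 3.55 ± 0.34 in chlorella-1 (adjusted p = 0.0076 and 2.82e-06).

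XCP1 (AT4G35350), a protease of the autolysis of maturing xylem vessels, ran against the other 9 genes. It measured 5.73, 5.94 and 4.57 CPM in young Col and 1.96, 1.80 and 1.42 CPM in young chlorella-1. At 26 d it measured 0.0765, 0.358 and 0.0821 CPM in Col and 0.484, 0.0915 and 0 CPM in chlorella-1. The highest library at 26 d lay below the lowest at 14 d, and the genotypes overlapped at 26 d only. The genotype difference at 26 d was 0.26 ± 0.88 on the log2 scale (adjusted p = 0.812), at read counts of 0 to 32 per library.

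With age XCP1 fell by 4.98 ± 0.81 on the log2 scale in Col (adjusted p = 0.00066) and by 3.08 ± 0.77 in chlorella-1 (adjusted p = 0.00375). Without Col replicate 2 at 26 d the Col change was -6.06, and without chlorella-1 replicate 1 or 3 at 26 d the mutant change was -5.33 or -2.43. Xylem markers moved with XCP1: without the metacaspase gene MC9, the summed level of 8 markers was 16.3 to 19.8 CPM in young Col, 8.49 to 12.9 in young chlorella-1, 0.275 to 2.30 in older Col and 0.172 to 2.74 in older chlorella-1. Their part in the result was not tested. MC9 went the other way, with 340 to 394 CPM in older chlorella-1 against 3.94 to 8.54 in Col (log2 fold change 5.77 ± 0.31, adjusted p = 3.16e-07), so the marker sum with MC9 was higher at 26 d in the mutant.

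**Figure D2:**
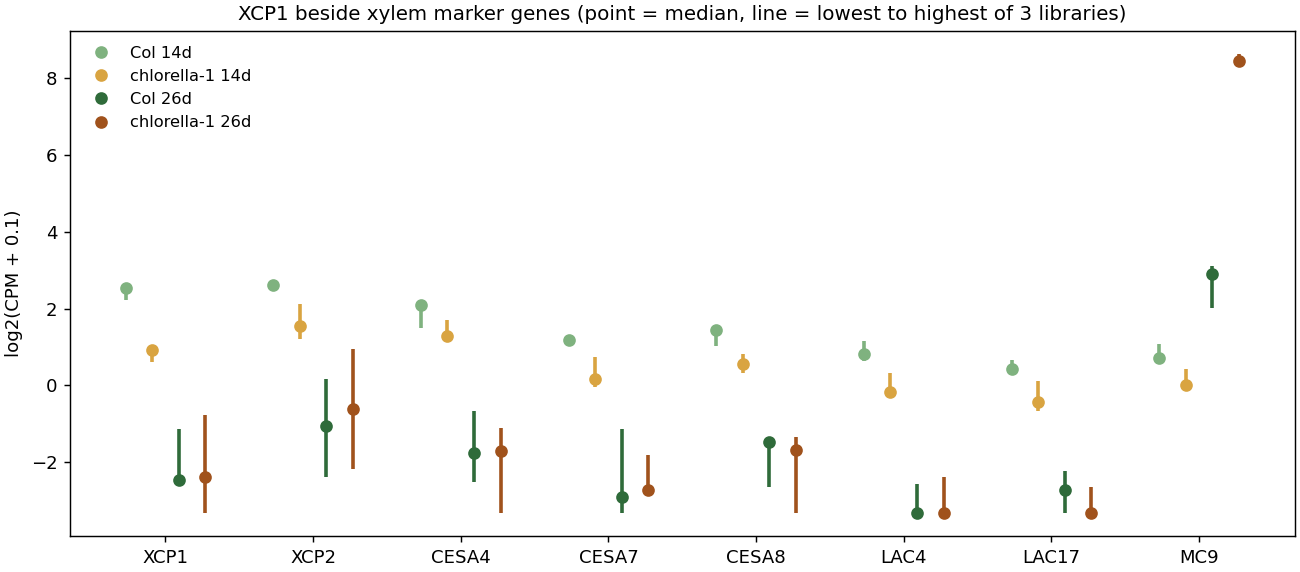
Level of XCP1 and 7 xylem marker genes on a log2(CPM + 0.1) axis by group; points are medians and lines run from the lowest to the highest of 3 libraries. XCP1, XCP2 and the cellulose synthase and laccase genes are highest in young Col, while MC9 is highest in older chlorella-1, from 340 to 394 CPM.

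Between the ages, 7 of the 10 genes rose and 1 fell in Col, beside 19.3% of all genes tested that rose and 20.2% that fell. In chlorella-1, 9 rose and 1 fell, beside 35.2% and 36% of all genes tested. The median log2 fold change of the 10 genes was 1.42 in Col and 3.64 in chlorella-1, with SAG12 entered at its lower bound. Among genes with counts at 14 d, gamma-VPE had the largest rise in Col after CEP1, at 3.30 ± 0.24 (adjusted p = 5.68e-06). In chlorella-1 its rise was 3.01 ± 0.24 (adjusted p = 5.76e-07), while RD19A rose by 0.97 ± 0.18 in Col and 2.14 ± 0.19 in chlorella-1 (adjusted p = 0.00159 and 1.26e-06).

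The interaction test of genotype with age asked which genes rose more with age in chlorella-1 than in Col. RD21A, RD21B, RD19A, AALP, alpha-VPE and beta-VPE passed, 6 of 10 genes and all higher, beside 21.2% of all genes tested. The differences were 1.90 ± 0.36 for RD21A (adjusted p = 0.00166), 3.13 ± 0.39 for RD21B (adjusted p = 0.000129) and 1.18 ± 0.25 for RD19A (adjusted p = 0.00368) on the log2 scale. The largest of these 3 differences was that of RD21B, the low member of the RD21 pair. AALP differed by 1.32 ± 0.36 (adjusted p = 0.0122), alpha-VPE by 7.65 ± 0.96 (adjusted p = 0.000135, and 7.03 without chlorella-1 replicate 2 at 14 d) and beta-VPE by 2.24 ± 0.45 (adjusted p = 0.00239). For CEP1 the difference of 5.40 ± 2.15 did not pass (adjusted p = 0.0626), with 6 and 8 counts in all at 14 d, but it passed with DESeq2 (adjusted p = 0.00622) and without Col replicate 1 at 26 d (adjusted p = 0.0344). Gamma-VPE differed by -0.29 ± 0.31 (adjusted p = 0.478) and XCP1 by 1.90 ± 1.10 (adjusted p = 0.184). The XCP1 difference was 2.53 and passed without chlorella-1 replicate 3 at 26 d (adjusted p = 0.027). Without chlorella-1 replicate 1 at 26 d it was -0.35 and did not pass.

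**Figure D3:**
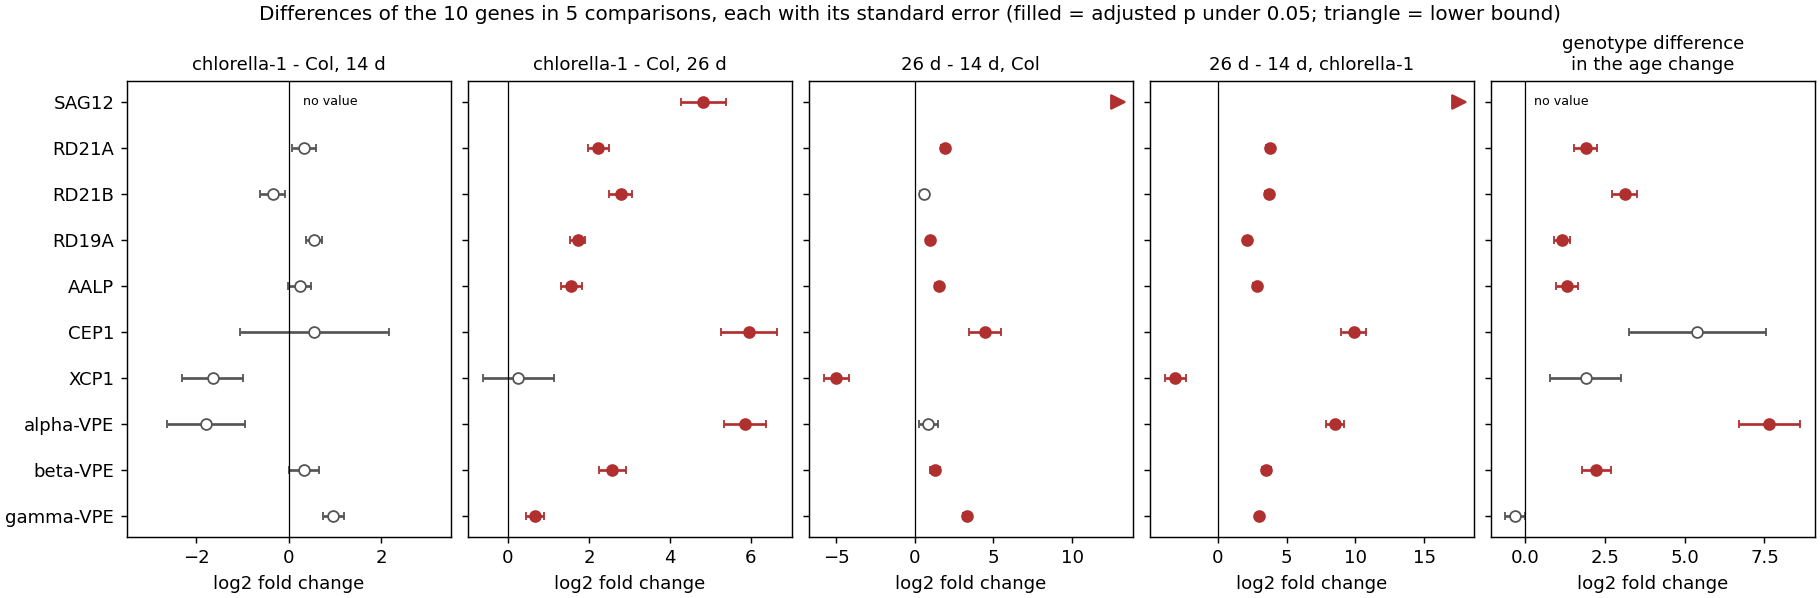
Log2 fold change of each of the 10 genes in 5 comparisons, with standard errors derived from edgeR's test statistic. Filled points mark an adjusted p under 0.05, and triangles give the lower bounds of SAG12. At 26 d, 9 points are filled to the right of 0, and the point of XCP1 is open.

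At 14 d, where the question was how the young leaves differ, none of the 10 genes passed in edgeR with all 12 libraries, beside 0.162% of all genes tested. At an unadjusted p under 0.05 there were 3, beside 9.07% of all genes tested. DESeq2 called 1, gamma-VPE (adjusted p = 0.0013), beside 2.07% of all genes tested. A fit of the 14 d groups alone called 4, RD21A, RD19A, gamma-VPE and XCP1, beside 14.6%.

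The libraries themselves did not overlap at 14 d for 4 genes that were higher in chlorella-1, beside 15% of all genes tested, and for 3 that were lower, beside 15.8%. Gamma-VPE measured 73.0, 59.4 and 78.0 CPM in Col and 158, 118 and 134 CPM in chlorella-1, a log2 fold change of 0.96 ± 0.22 (adjusted p = 0.149, and 0.000625 in the fit of the 14 d groups alone). All 3 mutant libraries were above the wild type, as they were for RD21A, RD19A and AALP. RD19A differed by 0.54 ± 0.18 (adjusted p = 0.314, and 0.0032 in the fit of the 14 d groups alone) and RD21A by 0.33 ± 0.25 (adjusted p = 0.815, and 0.0415). XCP1 differed by -1.65 ± 0.66 (adjusted p = 0.439, and 6.34e-05), with RD21B and alpha-VPE the other 2 genes below Col.

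Per kilobase of exon, the order of the genes changed with age and genotype. At 14 d RD19A led in both genotypes, with 130 ± 4.51 CPM per kb in Col and 190 ± 18.9 in chlorella-1 (SD, n = 3), ahead of RD21A with 63.7 ± 2.80 and 80.0 ± 8.17. In older Col gamma-VPE had the highest mean, 324 ± 79.6 CPM per kb. Its range over libraries overlapped that of RD19A at 255 ± 36.5, which in turn overlapped RD21A at 239 ± 52.2. Within each library gamma-VPE was above RD19A, with 387.4, 234.5 and 349.5 against 277.5, 212.6 and 273.8 CPM per kb. In older chlorella-1 SAG12 led with 2463 ± 982 CPM per kb, its range overlapping that of RD21A at 1122 ± 439, which overlapped RD19A at 839 ± 164. Within each library SAG12 was above RD21A, at 1.54 to 3.23 times its level, and RD21A was above RD19A. Gamma-VPE followed at 516 ± 93.5 and AALP at 330 ± 127, and these ranges overlapped. CEP1, beta-VPE and RD21B lay between 21.2 and 28.7 CPM per kb with neighbouring ranges overlapping, then alpha-VPE at 7.61 ± 2.87 and XCP1 at 0.136 ± 0.182. The authors' deposited FPKM values gave the same order in both Col groups, the groups for which they were used.

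Summed over the 32 papain-like genes of the table that were listed, the per-length level was 370 ± 14.1 CPM per kb in young Col, 473 ± 37.5 in young chlorella-1, 1140 ± 216 in older Col and 5668 ± 1649 in older chlorella-1. SAG12 made up 7.22% ± 3.19 of this sum in older Col and 42.5% ± 8.26 in older chlorella-1. RD19A went from 35.3% ± 0.532 in young Col to 22.6% ± 3.14 at 26 d, and from 40.1% ± 0.87 to 15.3% ± 3.74 in chlorella-1. RD21A held 17.2% ± 0.494, 16.9% ± 0.411, 20.9% ± 1.93 and 19.7% ± 3.75 in Col and chlorella-1 at 14 d and at 26 d, so its share moved little while its level rose. RD19C, a close relative of RD19A outside the 10 genes, had its largest share, 27.9% ± 1.69, in older Col, against 8.38% ± 2.37 in older chlorella-1.

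**Figure D4:**
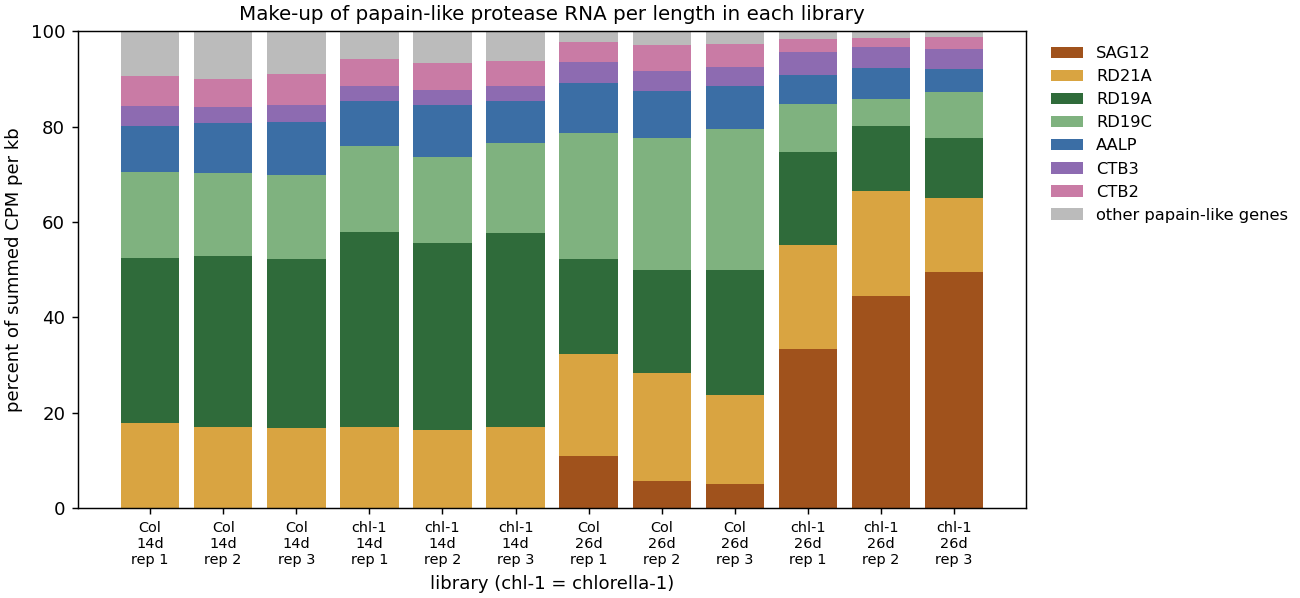
Shares in the summed CPM per kilobase of the 32 listed papain-like genes, as stacked percent per library. SAG12, RD21A, RD19A, RD19C, AALP, CTB3 and CTB2 are drawn singly and the other genes together. SAG12 takes 33.4% to 49.6% in the mutant libraries at 26 d. RD19A and RD19C together are the largest portion in Col at both ages and in young chlorella-1.

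Within each 26 d group, the same library was the highest for most of the 10 genes. By TMM-scaled CPM in chlorella-1, replicate 2 was the highest library for 8 of the 10 genes and the lowest for gamma-VPE. It had the lowest mesophyll marker sum, 403 CPM against 915 and 884. The highest library depended on the scaling. SAG12 had 187935 of 55903119 gene counts in replicate 2 and 206081 of 45120547 in replicate 3, so unscaled it was highest in replicate 3. How many of all genes tested were highest in this replicate 2, or in replicate 1 of Col, was not counted. In Col, replicate 1 was the highest for 7 of the 10 genes and again had the lowest mesophyll marker sum, 3816 CPM against 6671 and 5396. Without the mutant replicate 2, SAG12 still differed at 26 d by 4.56 (adjusted p = 0.000364). Whether the mesophyll markers and the proteases move together for a shared reason was not tested.

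Of 26 further papain-like and VPE genes, 19 were tested, and at 26 d 10 were higher and 4 lower in chlorella-1, beside 31.5% and 31.8% of all genes tested. The median log2 fold change of the list was 0.79, where that of all genes tested was -0.11. With age 6 rose and 3 fell in Col, beside 19.3% and 20.2% of all genes tested. In chlorella-1, 9 rose and 7 fell, beside 35.2% and 36%, so the falls were near the share of all genes. At 14 d none passed. The 3 largest differences at 26 d were all at low levels: AT2G34080 measured 0 to 0.148 CPM in Col and 1.72 to 2.41 in chlorella-1 (log2 fold change 4.76 ± 0.91, adjusted p = 0.000815). RDL1 measured 0 to 0.136 and 1.10 to 1.42 CPM (4.74 ± 1.07, adjusted p = 0.00582). CEP2, which like CEP1 encodes a protease with a retention tail, measured 0 to 0.0918 and 0.503 to 1.22 CPM (4.73 ± 1.06, adjusted p = 0.00569).

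Among the relatives with the largest differences between genotypes in the age change were RD19B, CTB3 and RDL5. RD19B, related to RD19A, measured 0.566 to 0.766 CPM in older Col and 6.77 to 9.88 in older chlorella-1, and the difference was 3.44 ± 0.32 (adjusted p = 2.47e-05). The cathepsin B gene CTB3 measured 66.5 to 99.4 and 333 to 528 CPM, and the difference was 2.30 ± 0.30 (adjusted p = 0.000162). RDL5 passed in the lower direction (adjusted p = 0.0449), with 0 counts in older chlorella-1 and so no fold. With age in Col, RD21C rose by 4.63 ± 0.71 (adjusted p = 0.000465), and the second xylem protease, XCP2, fell by 3.63 ± 0.82 (adjusted p = 0.00469). RDL3 fell by 3.23 (adjusted p = 0.0287), at levels near 0. It measured 0.21 to 0.39 CPM in young Col and had 5 counts in all in older Col, where its median was 0 CPM. In chlorella-1, RDL1 rose at least 70.7-fold, CEP2 at least 51.4-fold and delta-VPE, the seed coat form, at least 50.5-fold, all from 0 counts at 14 d (adjusted p = 0.00136, 0.00151 and 0.00168).

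Cystatins, the protein inhibitors of papain-like proteases, and the serpin SERPIN1 formed a list of inhibitors with 7 genes tested, of which 5 were higher in older chlorella-1 and none was lower, beside 31.5% and 31.8% of all genes tested. Its median log2 fold change was 0.95. CYS4 measured 2.57 to 3.29 CPM in Col and 16.0 to 20.6 in chlorella-1 (2.75 ± 0.18, adjusted p = 6.44e-07), and CYS7 20.4 to 24.5 and 99.2 to 145 CPM (2.42 ± 0.16, adjusted p = 6.2e-07). CYS5 measured at most 2.20 CPM in Col and 4.69 to 10.7 in chlorella-1 (1.83 ± 0.35, adjusted p = 0.000825). None of these 3 overlapped between the genotypes in older leaves. They were picked as the largest changes that passed, and no share of all genes tested without overlap is given for this comparison. In Col, 2 inhibitors rose with age and 1 fell, beside 19.3% and 20.2% of all genes tested: CYS7 rose by 1.80 ± 0.16 (adjusted p = 1.63e-05) and CYS6 by 0.43 ± 0.14 (adjusted p = 0.028), and CYS1 fell by 0.83 ± 0.15 (adjusted p = 0.00116). In chlorella-1, 4 rose and none fell, beside 35.2% and 36%. The largest rises there were those of CYS7 (adjusted p = 2.13e-08), CYS4 by 3.30 ± 0.19 (adjusted p = 6.79e-08) and CYS5 by 1.65 ± 0.35 (adjusted p = 0.00116). The interaction of genotype with age passed for 5 inhibitors, all higher, beside 21.2% of all genes tested. It was 3.28 ± 0.25 for CYS4, 2.21 ± 0.22 for CYS7 and 1.79 ± 0.49 for CYS5 (adjusted p = 1.12e-05, 3.29e-05 and 0.0127).

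The vacuolar sorting receptors, which carry vacuolar cargo such as aleurain from the Golgi, did not move one way. Of 6 tested at 26 d, 1 was higher and 3 were lower in chlorella-1, beside 31.5% and 31.8% of all genes tested. VSR1 was the higher one, with 41.5 to 56.5 CPM in Col and 70.0 to 151 in the mutant (adjusted p = 0.00114). VSR5 and VSR6 were lower, by -2.99 ± 0.56 and -2.51 ± 0.57 (adjusted p = 0.000752 and 0.00258), as was VSR3 by -0.63 ± 0.15 (adjusted p = 0.00332). With age, VSR7 rose in Col by 2.15 ± 0.28 and in chlorella-1 by 2.49 ± 0.29 (adjusted p = 0.00018 and 1.19e-05), and VSR4 rose by 0.56 ± 0.14 in Col (adjusted p = 0.00808). In chlorella-1, VSR1 also rose, by 1.76 ± 0.24, and VSR5 changed by -2.52 ± 0.56 (adjusted p = 5.32e-05 and 0.00177). The interaction was 1.33 ± 0.34 for VSR1, -2.78 ± 0.74 for VSR5 and -0.56 ± 0.21 for VSR3 (adjusted p = 0.00874, 0.0112 and 0.0498).

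**Figure D5:**
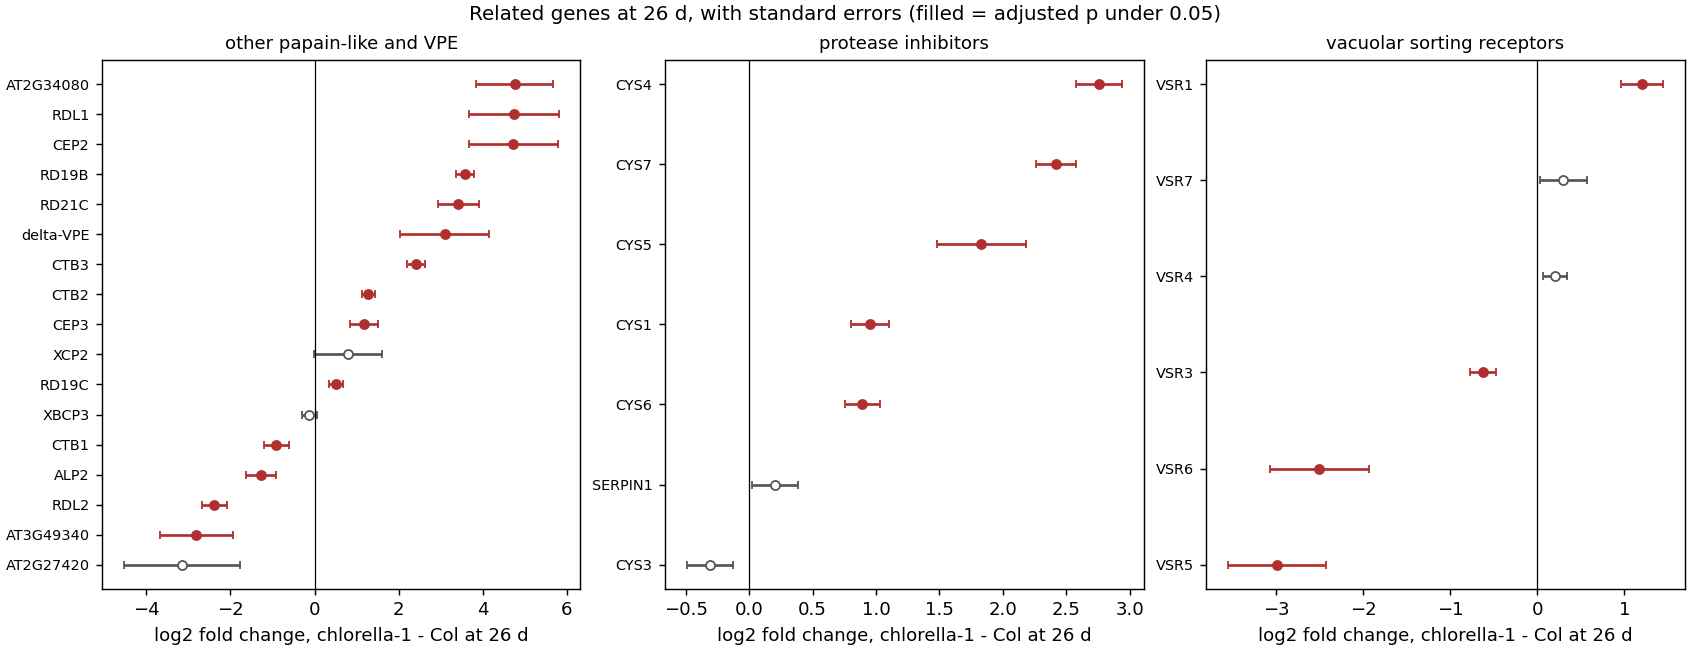
Log2 fold change between chlorella-1 and Col at 26 d for further papain-like and VPE genes, protease inhibitors and vacuolar sorting receptors. Standard errors are derived from edgeR's test statistic, and filled points mark an adjusted p under 0.05. Genes with 0 counts in a group are not drawn; CYS4 and CYS7 lie at 2.75 and 2.42.

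The genes most like each protease gene over the 12 libraries were found by the mean absolute difference of centred log2(CPM + 0.5), among 8574 genes with a symbol. For SAG12 they were the beta-glucosidase gene DIN2 (0.542) and DOX1 (0.583), an alpha-dioxygenase gene, both at 0 in all libraries at 14 d. RD21A had PUB43 (0.128) and PDS1 (0.144), RD19A had NUDX15 (0.081) and ML5 (0.0896), and AALP had APP1 (0.113) and ECA1 (0.134). Gamma-VPE stood with CYP71B3 (0.258) and WRKY26 (0.198), which measured 0.977 to 1.24 CPM in young Col and 15.5 to 25.9 at 26 d. CYP71A23 was among the nearest to both RD21B (0.132) and beta-VPE (0.163), and these were also the closest pair among the 10 genes, at 0.272. The other near gene was SDH1-1 (0.137) for RD21B and SKIP1 (0.157) for beta-VPE. CYP71A23 itself was near 0, at most 0.0889 CPM in young Col and 0.0921 in young chlorella-1. It measured 0.263 to 0.658 CPM in older Col and 3.59 to 7.55 in older chlorella-1. The added 0.5 CPM narrows changes at such levels, so its likeness does not mean a fold of similar size. CEP1 was nearest to CML23 (0.228) and HMA5 (0.245), alpha-VPE to TOPP6 (0.165) and ZIP9 (0.207), and XCP1 to SAHH2 (0.229) and FAP3 (0.251). Likeness here is a distance between profiles of 4 groups and is no test.

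The 250 bases before each gene's start were read for 3 short motifs on both strands, the W-box core TTGAC bound by WRKY factors, the G-box CACGTG and the abscisic acid response core ACGTG, which the G-box contains. The W-box core was found upstream of 4 of the 10 genes (RD21B, AALP, alpha-VPE and gamma-VPE), where 44.9% of 27443 promoters of this length hold it, and ACGTG upstream of 3 (CEP1, XCP1 and beta-VPE), where 22.9% hold it. With 10 genes, these shares are close to those of all promoters. The G-box was found upstream of none, where 6.49% hold it. Shown are the windows of SAG12, the gene at 0 at 14 d, and of the vegetative VPE pair, which share coding sequence and differ in their change with age in Col, from the RefSeq TAIR10.1 genome. They are chr5:18612989-18613238 on the plus strand for SAG12, and chr4:15903524-15903773 and chr2:11066185-11066434 on the minus strand for gamma-VPE and alpha-VPE. Capitals mark TTGAC or its reverse complement, and a match is a description of the letters only.
SAG12: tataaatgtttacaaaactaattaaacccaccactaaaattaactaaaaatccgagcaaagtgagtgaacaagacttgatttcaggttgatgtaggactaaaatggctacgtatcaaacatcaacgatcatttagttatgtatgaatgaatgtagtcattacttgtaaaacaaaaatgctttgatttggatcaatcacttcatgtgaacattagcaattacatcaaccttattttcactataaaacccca
gamma-VPE: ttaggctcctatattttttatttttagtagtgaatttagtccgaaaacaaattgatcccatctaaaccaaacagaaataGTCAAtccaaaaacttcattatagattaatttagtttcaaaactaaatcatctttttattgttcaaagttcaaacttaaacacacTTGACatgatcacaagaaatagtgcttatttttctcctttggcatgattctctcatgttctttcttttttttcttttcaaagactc
alpha-VPE: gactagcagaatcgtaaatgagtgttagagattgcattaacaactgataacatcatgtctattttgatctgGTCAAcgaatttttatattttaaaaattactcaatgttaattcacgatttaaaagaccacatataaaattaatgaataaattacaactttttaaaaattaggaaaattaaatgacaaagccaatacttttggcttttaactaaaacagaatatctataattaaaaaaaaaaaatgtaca

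Of the 10 genes, 3 overlap a gene on the opposite strand in the annotation, and the strand setting of the counting is not given in the sources used here, so reads of the partners may not be told apart. XCP1 overlaps AT4G35360, which measured at most 13.2 CPM in young Col and 18.8 to 23.8 CPM in older chlorella-1, where XCP1 was at most 0.484 CPM. Alpha-VPE overlaps ELF3, with 6.54 to 9.24 CPM in older Col and 14.1 to 23.1 CPM in older chlorella-1. Gamma-VPE overlaps AT4G32930, which stayed between 4.42 and 8.35 CPM in all 12 libraries. Of the related genes named, AT2G34080, delta-VPE, RD19C, CTB2, CYS6, VSR1 and VSR7 also have an annotated partner on the opposite strand, and RD19B one on its own strand.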

How the data were processed

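Leaf RNA of 4 groups (Col and chlorella-1 at 14 d and 26 d, 3 libraries each) was analysed from the authors' deposited table of whole-number read counts and FPKM values per gene, both as the file headers name them. The submitters' processing notes name TAIR10 as the build and, among tools, DESeq2, StringTie, HTSeq, HISAT2 and STAR; their versions, their roles and how strand was counted are not given in the sources used here. The counts of 38288 genes entered; 50 rows that name no gene (0.0771% to 0.216% of a library) were left out. The authors' deposited FPKM of Col served only to check the order of levels and the shares; 6 per-sample columns, the FPKM of chlorella-1, were not used, since some carry no replicate number.

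edgeR 4.0.16 (R 4.3.3, limma 3.58.1) fitted 1 quasi-likelihood model with a term per group to all 12 libraries, with TMM scaling and filterByExpr, which kept 20398 genes. Tests were two-sided, adjusted by Benjamini-Hochberg over all genes within a comparison, with a threshold of 0.05. The standard errors of log2 fold changes are not an output of edgeR. Each was derived as the absolute log2 fold change divided by the square root of the test's F statistic. Where all libraries of a group had 0 counts, the fold is a lower bound, computed with 3 counts in that group, and covers counting error only. Levels of different genes were compared per kilobase of the union of annotated exons. Coding sequences were aligned with MAFFT 7.526; sequences and annotation came from RefSeq TAIR10.1 and the analysis was run with Python 3.11.15. Alternatives were DESeq2 1.42.0, limma voom, edgeR with DESeq2 size factors or scaled on nuclear genes, no filter, a stricter filter (10 counts in each library of some group), only the groups compared, a replicate block and each library left out.

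All 10 genes are named in every comparison. Of each list of related genes, the 3 with the largest absolute change that passed are named per comparison, together with the 2 genes most like each protease gene; MC9, RD19C and XCP1's marker list were named besides these after their values were seen. The genes, lists and tests were chosen with earlier results of these data known.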

Additional observations from a re-analysis of the deposited data

Results flagged for a closer look

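For 6 genes the change with age differed between the genotypes by the test of the difference itself (edgeR's quasi-likelihood test, adjusted p under 0.05). Each rose more in chlorella-1 than in Col, by 1.90 on the log2 scale for RD21A, 3.13 for RD21B, 1.18 for RD19A, 1.32 for AALP, 7.65 for alpha-VPE and 2.24 for beta-VPE. Among all genes tested, 21.2% differed in this direction, so the flag itself is common in these data. The alpha-VPE value rests on 6 counts over the 3 mutant libraries at 14 d.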

How the results depend on the processing

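Of 46 log2 fold changes of the 10 genes, 36 kept their direction and their side of the threshold under every alternative that gave a value. Of 902 alternative values, 882 did, while 2 lost the call, 11 gained it and 7 changed direction. The reversals were all values that did not pass. For CEP1 at 14 d they were -0.17 with limma voom and -0.073 without Col replicate 1 at 14 d. For XCP1 at 26 d they were -0.82 with limma voom, -0.12 and -0.09 without Col replicate 1 or 3, and -2.00 without chlorella-1 replicate 1. For XCP1 the genotype difference in the age change was -0.35 without chlorella-1 replicate 1 at 26 d. With each library left out, the values ran from -0.073 to 1.55, from -2.00 to 1.33 and from -0.35 to 2.98 for these 3 results. The cause was not tested. No value is given where leaving out a library left CEP1 or alpha-VPE at 0 counts in a group (6 cases), nor for the age changes of SAG12.

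The count of the 10 genes called at 14 d was 0, against 1 with DESeq2 and 4 in the fit of the groups compared alone. Of all genes tested, 33 passed at 14 d, against 423 with DESeq2, 2713 in the fit of the groups compared alone, and 5 to 232 with a library left out. With each library left out, the 10-gene counts ran from 0 to 0 at 14 d, 8 to 9 at 26 d, 8 to 9 with age in Col, 10 to 10 with age in chlorella-1 and 6 to 7 for the difference. Deposited FPKM left the order of levels and the shares of 5 papain-like genes in Col within the spread between replicates. This alternative was not run for chlorella-1, where some FPKM columns carry no replicate number.

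The labels state no pairing by replicate number, and the main fit used none. Correlations of same-numbered deviations ran from -0.187 to 0.126, which cannot settle whether same-numbered libraries share a source. With the replicate number as a block, 11 genes passed at 14 d, and 0, 9, 8, 10 and 6 of the 10 genes passed in the 5 comparisons, the same counts as without it.

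Scaling by DESeq2 size factors moved the median of all genes at 26 d from -0.114 to 0.0186. CEP1 and alpha-VPE had at most 10 read counts in any library at 14 d, so their genotype differences at that age rest on few reads.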
